A study of Ovis aries with 30 samples.

Results

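NR3C1, HSD11B1 and NFKBIA were followed across 30 samples of sheep epicardial adipose tissue, the fat on the surface of the heart. NR3C1 encodes the glucocorticoid receptor, HSD11B1 the enzyme that regenerates active cortisol inside cells, and NFKBIA an inhibitor of inflammatory signalling that glucocorticoid induces. All probes that the array annotation gives these 3 genes were used, which are 4 of the 15008 probes of a 1-colour Agilent sheep array, on which 986 different gene names could be assigned. NR3C1 and NFKBIA had 1 probe each and HSD11B1 had 2. The probes were found by gene name.

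Control fetuses (n = 8) were taken at term from untreated ewes. CORT fetuses (n = 6) were taken at term from ewes that received cortisol at 1 mg/kg/day. Control lambs (n = 7) were 2 weeks old and born to untreated ewes. CORT lambs (n = 9) were 2 weeks old and born to ewes that received 0.5 mg/kg/day, infused overnight only. The paper describes its infusions at 1 mg/kg/day as continuous. Infusion began on gestational day 115 and stopped at delivery in the ewes of the lambs, and the offspring themselves were not treated. All values were thus taken in CORT fetuses during exposure and in CORT lambs after it had ended. The dose differed between the ages as well, and by the paper's account so did the daily schedule. CORT fetuses and CORT lambs are therefore set side by side without a test. Twins were born to the ewes of both lamb groups. By the paper's counts, 8 ewes bore the 9 CORT lambs, so that group holds both twins of 1 ewe. Which lambs had the same mother is not given in the labels, and each animal was taken as independent in the tests.

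Cortisol acts on fat through the glucocorticoid receptor, which leaves its chaperones when the steroid binds, enters the nucleus and there raises or lowers the transcription of its target genes. How much active steroid reaches the receptor depends on enzymes in the cell itself. HSD11B1, abundant in fat and liver, reduces inert cortisone to cortisol, and HSD11B2 runs the opposite reaction. Among the receptor's targets is NFKBIA, the inhibitor that holds NF-kappaB in the cytoplasm. NF-kappaB itself also induces NFKBIA, as part of a feedback loop.

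Each probe is a strand of 60 bases, and its signal is that of the transcripts that pair with it. The probe sequences of the receptor and of the inhibitor are shown because each lies in coding sequence and decides which transcripts are counted. They are written in lower case as the file gives them, with the base of the transcript record at which they start.

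NR3C1 (A_70_P016896), from base 2259: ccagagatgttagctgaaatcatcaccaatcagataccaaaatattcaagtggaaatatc

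NFKBIA (A_70_P068111), from base 655: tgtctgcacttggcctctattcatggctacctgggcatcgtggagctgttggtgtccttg

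The NR3C1 probe reads the end of the ligand-binding domain and the NFKBIA probe a stretch of the ankyrin repeats. Their GC content is 35% and 55%. The HSD11B1 probes start at bases 1273 (A_70_P051221) and 1151 (A_70_P051222) of their shared record and do not overlap. The longest run that any of the 4 probes shares with a probe of another gene is 13 bases. All 4 probes were well above background on all 30 arrays, and none was saturated. Foreground intensity ran from 743 to 1595 for NR3C1, from 920 to 4336 for NFKBIA, from 313 to 1570 for the brighter HSD11B1 probe and from 122 to 383 for the dimmer one, against a local background of 29 to 55. Levels below are log2 intensities after background correction and quantile normalization over the 30 arrays. They compare animals within a probe and not one gene with another.

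The median foreground intensity of an array lay between 131.6 and 240.4, its median local background lay between 34 and 46, and 70.39% to 83.52% of the spots of an array were well above background. The arrays lay on 4 slides. Slides 1 and 2 held 4 Control and 3 CORT fetuses each, slide 3 held 4 Control and 4 CORT lambs, and slide 4 held 3 Control and 5 CORT lambs. Treatment can thus be compared within a slide. Each slide held 1 age, so that age and slide cannot be told apart.

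NR3C1 was the member that separated the ages. In Control fetuses its level had a lowest value of 9.48, a median of 9.66 and a highest of 9.86. In CORT fetuses the lowest, median and highest levels were 9.41, 9.60 and 9.78. In Control lambs they were 10.32, 10.63 and 10.68, and in CORT lambs 9.94, 10.46 and 10.76. All 16 lambs lay above all 14 fetuses, and within an age the 2 treatments overlapped. The share of all tested probes that separate all lambs from all fetuses was not counted. Age and slide cannot be told apart in this split.

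From Control fetuses (9.65 ± 0.13, SD, n = 8) to Control lambs (10.54 ± 0.15, SD, n = 7), NR3C1 rose by 0.90 on the log2 scale (SE 0.07, 95% confidence interval 0.74 to 1.05), which is 1.86-fold (1.67 to 2.08). The adjusted p was 1.68e-07 by limma's moderated test with Benjamini-Hochberg adjustment over all 12872 tested probes. In that comparison 41.6% of the tested probes passed an adjusted p of 0.05, 20.3% higher and 21.3% lower in lambs, so that a call by itself is common. NR3C1 ranked 137 of 12872 by p and 808 by size of change. Control lambs that all exceed the Control fetuses were seen for 7.38% of the tested probes. No other split of the 15 animals gave as large a difference, and the exact two-sided permutation p of 0.000155 is the smallest that 6435 splits can give. The mean of Control lambs lay 0.94 above Control fetuses of slide 1 and 0.86 above those of slide 2.

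**Figure D1:**
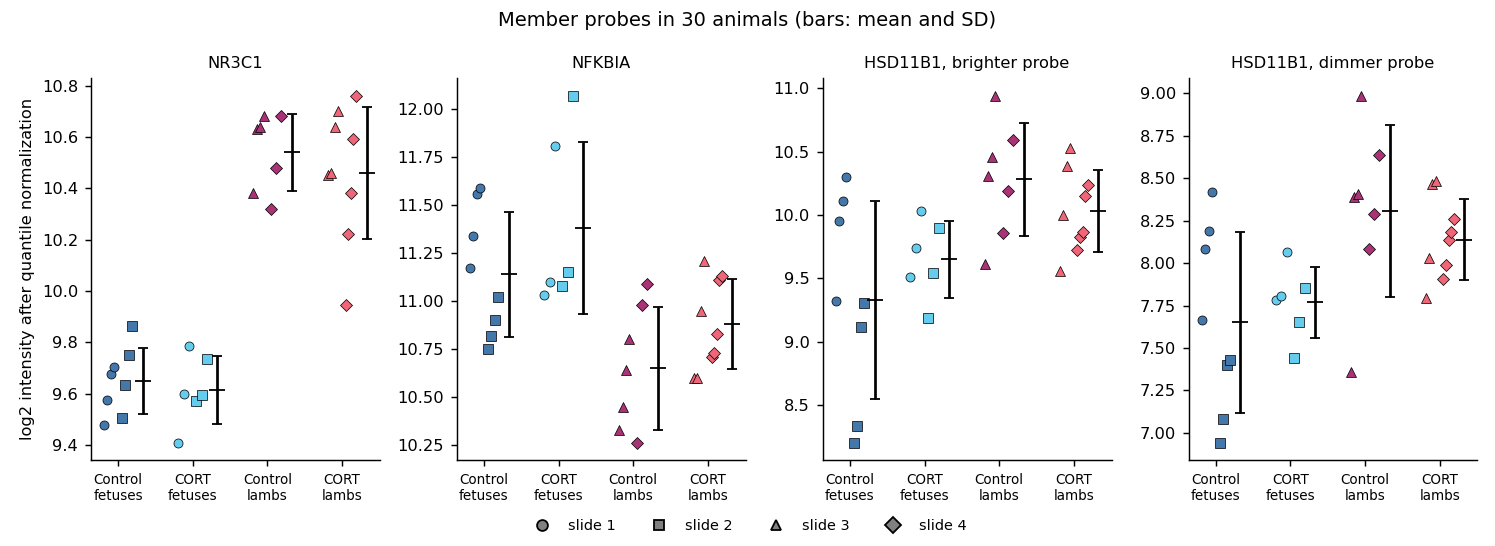
Log2 intensity of the 4 probes after quantile normalization in each of 30 animals, by group, with marker shape for the slide and bars for the mean and SD. NR3C1 of all 16 lambs lies above that of all 14 fetuses, and the share of tested probes that do so was not counted. Between the Control groups alone, 7.38% of tested probes were higher in every lamb. The HSD11B1 and NFKBIA values of Control fetuses fall apart by slide, and those of CORT fetuses overlap.

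HSD11B1 was higher in lambs too, with a wider spread. At the brighter probe, Control fetuses had a lowest level of 8.20, a median of 9.31 and a highest of 10.30. CORT fetuses had 9.18, 9.64 and 10.03. Control lambs had 9.61, 10.31 and 10.94, and CORT lambs had 9.56, 9.996 and 10.53. Of the 7 Control lambs, 4 lay above the highest Control fetus and the other 3 lay within the fetal range, so the groups overlapped.

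The rise from Control fetuses (9.33 ± 0.78, SD, n = 8) to Control lambs (10.28 ± 0.45, SD, n = 7) was 0.95 on the log2 scale (SE 0.30, 95% confidence interval 0.30 to 1.59), or 1.93-fold (1.23 to 3.02), with an adjusted p of 0.0192 by limma. The exact two-sided permutation p was 0.0138. At the dimmer probe the levels were 7.65 ± 0.53 (SD, n = 8) in Control fetuses and 8.31 ± 0.51 (SD, n = 7) in Control lambs. That rise was 0.66 (SE 0.25, 0.13 to 1.18, adjusted p 0.0420 by limma, exact permutation p 0.0328). Among all tested probes the changes of the brighter and the dimmer probe ranked 714 and 1518 by size and 4420 and 5172 by p. When each array was quantile normalized only with those of its own age, the rise fell to 0.44 and did not pass (adjusted p 0.182), in a setting that lowered the median change of all tested probes to -0.54.

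The 2 HSD11B1 probes followed each other closely. Across 30 arrays Pearson's r between them was 0.961 and Spearman's rho 0.962, and r was 0.948 after the group means had been subtracted. The probes share their samples and their target, so this is agreement within the arrays and not a replicate. Control lamb 1 stood lowest of its group at both probes, at 9.61 and 7.36, and Control lamb 2 highest, at 10.94 and 8.98.

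**Figure D2:**
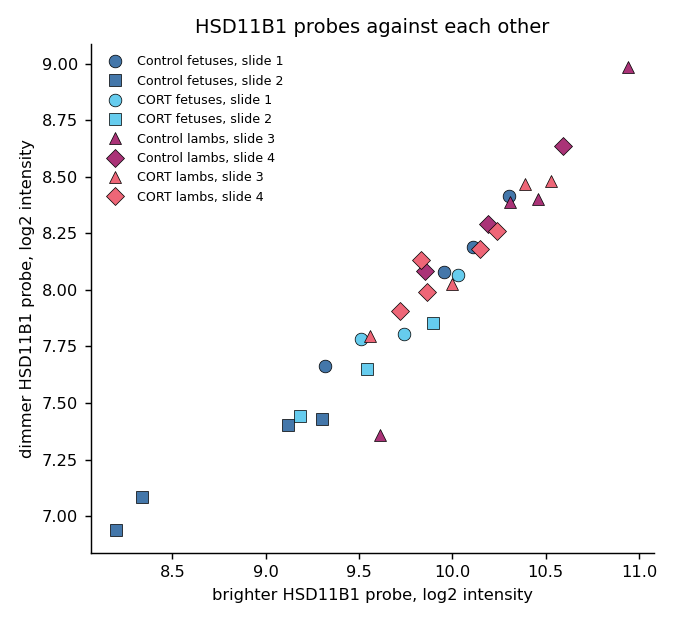
Log2 intensity of the dimmer HSD11B1 probe against that of the brighter one in 30 animals, coloured by group and shaped by slide. The points lie close to a line (r 0.961), with Control fetuses of slide 2 at the low end and Control lambs reaching the high end.

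The spread of HSD11B1 in Control fetuses lay both within and between the slides, with an SD of 0.43 on slide 1 and 0.55 on slide 2. Its levels were 9.32 to 10.30 in the 4 animals of slide 1 and 8.20 to 9.30 in the 4 of slide 2, with no overlap. The dimmer probe gave 7.66 to 8.42 and 6.94 to 7.43. NFKBIA gave 11.17 to 11.59 on slide 1 and 10.75 to 11.02 on slide 2, again without overlap. NR3C1 overlapped, at 9.48 to 9.70 and 9.50 to 9.86. Of all tested probes, 12.3% separated the 2 slides of Control fetuses in this way, 5.75% higher on slide 1 and 6.5% lower. In CORT fetuses the 2 slides overlapped for both HSD11B1 and NFKBIA. The brighter HSD11B1 probe gave 9.51 to 10.03 on slide 1 and 9.18 to 9.90 on slide 2. NFKBIA gave 11.03 to 11.81 and 11.08 to 12.07. For marker lists the log2 of the summed intensity is given, in which the brightest gene weighs most. The brown adipocyte markers UCP1 and PPARGC1A gave 14.62 to 15.58 in Control fetuses of slide 1 and 13.79 to 14.92 in those of slide 2. The 6 tested of 8 adipocyte markers gave 15.37 to 15.81 and 15.15 to 15.54, and the 3 tested of 6 fibroblast markers 14.61 to 15.18 and 15.11 to 15.43. The 2 tested of 4 erythroid markers gave 12.09 to 13.73 and 13.60 to 15.76, and the mesothelial marker WT1 gave 8.61 to 9.13 and 8.35 to 8.62. The part of the slide or of tissue makeup in the HSD11B1 and NFKBIA values was not tested. Against Control fetuses of slide 1 the mean of Control lambs was 0.36 higher for HSD11B1, and against those of slide 2 it was 1.54 higher. With slide as a random block the rise was 0.95 (adjusted p 0.0394 by limma). That fit applied the same within-slide correlation to all probes and counted animals, not slides. It therefore cannot separate the rise from the slides.

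NFKBIA ran the other way with age. In Control fetuses its lowest, median and highest levels were 10.75, 11.10 and 11.59, and in CORT fetuses 11.03, 11.13 and 12.07. In Control lambs they were 10.26, 10.64 and 11.09, and in CORT lambs 10.60, 10.83 and 11.21. All 7 Control lambs lay below the mean of Control fetuses, and 4 of them lay below the lowest Control fetus, so the groups overlapped. Control lambs that all lay below the Control fetuses were seen for 8.49% of the tested probes, and either separation for 15.9%.

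From Control fetuses (11.14 ± 0.33, SD, n = 8) to Control lambs (10.65 ± 0.32, SD, n = 7), NFKBIA fell by 0.50 on the log2 scale (SE 0.15, 95% confidence interval -0.82 to -0.17), to 0.71 of the fetal level (0.56 to 0.89). The adjusted p was 0.0166 by limma and the exact two-sided permutation p 0.0129. This call was lost under 4 of 10 alternative settings. With the scanner software's own corrected signal the fall was 0.42 or 0.44 (adjusted p 0.0582 and 0.0603, by its scaling), with array weights 0.33 (adjusted p 0.0769) and with replicate number as a block 0.53 (adjusted p 0.0532). The block leaves Control fetus 8, which has no Control lamb of its number, out of the change. A fit without that animal and with no block gave the same fall and passed (adjusted p 0.0160 by limma). When each age was normalized alone NFKBIA fell by 1.00, or by 0.46 less the median change of all tested probes. The mean of Control lambs was 0.77 below Control fetuses of slide 1 and 0.23 below those of slide 2. Levels in bulk tissue cannot tell fewer expressing cells from less transcript per cell, for any of the 3 genes.

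**Figure D3:**
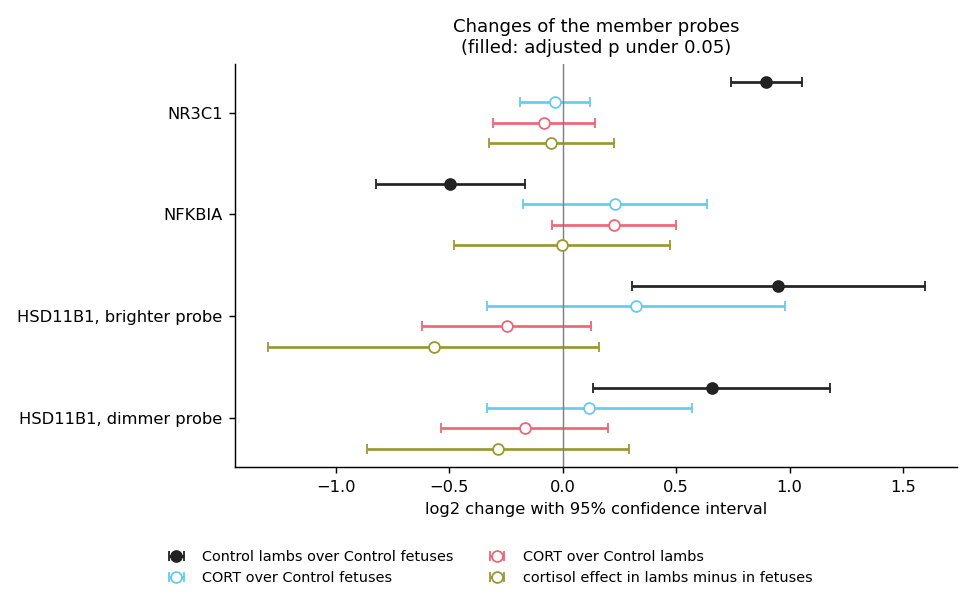
Log2 change of each probe in 4 comparisons, with 95% confidence intervals, filled where limma's adjusted p was under 0.05. All 4 probes pass between the ages, NR3C1 with the narrowest interval (0.74 to 1.05), and every interval of the cortisol comparisons includes 0.

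The question of the lamb comparison was whether cortisol in the ewe left a trace in the offspring's tissue after birth. None of the 3 genes passed, and 0 of 12872 probes did (limma, adjusted p of 0.05), while 3.56% of all tested probes had an unadjusted p under 0.05 and none of the 4 probes did. NR3C1 averaged 10.46 ± 0.26 (SD, n = 9) in CORT lambs, 0.08 below Control lambs (change -0.08, SE 0.11, 95% confidence interval -0.31 to 0.14, exact permutation p 0.475). As a ratio of CORT to Control this is 0.944 (0.808 to 1.102). Of the 9 CORT lambs, 2 lay above all Control lambs and 2 below, and without CORT lamb 9, the lowest at 9.94, the change was -0.019. HSD11B1 averaged 10.03 ± 0.32 (SD, n = 9) at the brighter probe, with a change of -0.25 (SE 0.18, -0.62 to 0.12, exact permutation p 0.216). That change was -0.14 without Control lamb 2 and -0.36 without Control lamb 1 (unadjusted p 0.420 and 0.0447 by limma), and -0.34 with array weights (unadjusted p 0.0470), with adjusted p values of at least 0.801 under every setting. Of the CORT lambs, 7 of 9 lay below the Control mean at both probes, and the dimmer probe changed by -0.17 (-0.54 to 0.20, exact permutation p 0.399). NFKBIA averaged 10.88 ± 0.23 (SD, n = 9), with a change of 0.23 (SE 0.13, -0.05 to 0.50, unadjusted p 0.0991 by limma, exact permutation p 0.122). With array weights the change was 0.10 (unadjusted p 0.410 by limma). It was 0.16 without Control lamb 6, 0.30 without Control lamb 5 and 0.28 without Control lamb 7. Their unadjusted p values by limma were 0.226, 0.030 and 0.0489. The adjusted p was at least 0.9207 in every fit that left out 1 animal. Of the CORT lambs, 7 of 9 lay above the Control mean and 3 above the highest Control lamb. Within slides 3 and 4 the changes were -0.02 and -0.11 for NR3C1, -0.21 and -0.25 for HSD11B1, and 0.29 and 0.13 for NFKBIA, so each kept its sign.

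In fetuses, which were collected under exposure, none of the 3 genes and 0 of 12872 probes passed the adjusted threshold by limma either, and 2.37% of all tested probes but none of these 4 had an unadjusted p under 0.05. NR3C1 averaged 9.61 ± 0.13 (SD, n = 6) in CORT fetuses, a change of -0.03 (SE 0.07, 95% confidence interval -0.19 to 0.12, exact permutation p 0.643), a ratio of 0.977 (0.878 to 1.088). Within slides 1 and 2 it was -0.01 and -0.05. HSD11B1 averaged 9.65 ± 0.30 (SD, n = 6), a change of 0.32 (SE 0.31, -0.34 to 0.98, exact permutation p 0.361). It was 0.16 without Control fetus 5, the lowest control, and it did not hold within slides, at -0.16 on slide 1 and 0.80 on slide 2. The dimmer probe changed by 0.12 (-0.34 to 0.57, exact permutation p 0.613). NFKBIA averaged 11.38 ± 0.45 (SD, n = 6), a change of 0.23 (SE 0.19, -0.17 to 0.63, exact permutation p 0.285), and it too differed in sign within slides, at -0.10 and 0.56. CORT fetuses 1 and 5, at 11.81 and 12.07, lay above the highest Control fetus, while the other 4 lay between 11.03 and 11.15. Without CORT fetus 5 the change was 0.09. With replicate number as a block, which leaves Control fetuses 7 and 8 out of the change, it was 0.14.

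In the interaction (lambs minus fetuses), age cannot be told apart from dose, infusion schedule or the time since exposure. It tested whether the change with cortisol differed between lambs and fetuses. It was -0.05 (95% confidence interval -0.32 to 0.22) for NR3C1, -0.57 (-1.30 to 0.16) for HSD11B1 at the brighter probe, -0.29 (-0.87 to 0.29) at the dimmer probe and -0.00358 (-0.48 to 0.47) for NFKBIA. None passed, and 0 of 12872 probes did by limma, with 2.05% of all tested probes and none of these 4 at an unadjusted p under 0.05. The unadjusted p of the brighter HSD11B1 probe was 0.122 by limma, and 0.0375 with array weights (-0.81, adjusted p 1.00).

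By group mean, the order from low to high was CORT fetuses, Control fetuses, CORT lambs and Control lambs for NR3C1, and Control fetuses, CORT fetuses, CORT lambs and Control lambs for both HSD11B1 probes. For NFKBIA it was Control lambs, CORT lambs, Control fetuses and CORT fetuses. Neighbours that share an age did not differ beyond their spread in any of these orders. The step between the ages was 0.81 for NR3C1, between Control fetuses and CORT lambs. It was 0.38 for the brighter HSD11B1 probe, between CORT fetuses and CORT lambs, and 0.27 for NFKBIA, between CORT lambs and Control fetuses. These 3 steps were not tested, since the design does not compare those groups.

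Animals of the same age that were high in 1 member were not reliably high in another. With group means subtracted, the 6 relations of 3 pairs in 2 ages had no adjusted permutation p under 0.435. The largest r was 0.41 between HSD11B1 and NFKBIA in lambs (n = 16, Spearman's rho 0.39, permutation p 0.153 and 0.160, adjusted 0.435), and 0.45 without the 2 animals farthest from the median of HSD11B1. Between NR3C1 and HSD11B1, r was 0.36 in lambs (rho 0.31, permutation p 0.143 and 0.234) and -0.20 in fetuses (n = 14, rho -0.03, permutation p 0.520 and 0.930). Between NR3C1 and NFKBIA, r was 0.17 in lambs (rho 0.23, permutation p 0.505 and 0.371) and -0.32 in fetuses (rho -0.31, permutation p 0.290 and 0.301). Between HSD11B1 and NFKBIA in fetuses, r was 0.30 (rho 0.30, permutation p 0.256 and 0.308) and 0.12 without the 2 farthest animals.

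Other genes of the pathway moved with age more than with cortisol. Of 140 genes in lists of glucocorticoid action and NF-kappaB signalling, 41 had a tested probe that bore their name. Gene names were assigned to 1593 of the 15008 probes, so the other genes may still be on the array. The paper lists FKBP4, PPID and NCOR1, genes of these lists, from heart on this array type. Of the 41, 23 (56.1%) passed between Control fetuses and Control lambs by limma, 16 higher and 7 lower in lambs. Of all tested probes 41.6% passed, but these include dim and unnamed probes, while each listed gene was represented by its brightest. The median change of the 41 genes was 0.06, against -0.00822 over all tested probes. Where each age was quantile normalized alone, which put the median change of all tested probes at -0.54, the counts were 4 higher and 25 lower, and CEBPB, TNF, PTGS2 and EGR1 turned in sign. Less that median, all 23 kept their direction. Control fetuses and Control lambs are the same animals in every count here, so the members' own changes are among them.

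Of the receptor and its chaperones, 3 of 18 had a tested probe that bore their name. NR3C2, the mineralocorticoid receptor, which also binds cortisol, rose by 0.52 (SE 0.14, adjusted p 0.00631 by limma), and its other probe changed by 0.58. HSP90AA1, a chaperone of the unliganded receptor, gave -0.05 and did not pass. Of 18 genes of steroid activation and transport, 7 were tested and 2 rose, which were HSD11B1 and HSD11B2. HSD11B2, which inactivates cortisol, rose by 0.90 (SE 0.18, adjusted p 7.1e-04 by limma), with 0.75 at its other probe. The enzymes of both directions were thus higher in lambs. PGD, which makes the reduced cofactor NADPH, gave -0.33 and did not pass (adjusted p 0.0652 by limma). ABCB1, STAR and CYP17A1 did not pass. The 1 tested coregulator of 19, PPARGC1A, the coactivator of mitochondrial and brown fat genes, fell by 1.33 (SE 0.19, adjusted p 3.15e-05 by limma).

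Of 37 genes that glucocorticoid induces in many tissues, 13 were tested, with 6 higher in lambs and 3 lower, among them NFKBIA. LPL, the lipase that frees fatty acids from lipoproteins, rose by 1.81 (SE 0.19). ZFP36, which destabilises cytokine mRNA, rose by 0.70 at its brighter probe and gave -0.44 at the other, so its direction is not settled. TXNIP, an inhibitor of thioredoxin, rose by 0.68, the water channel AQP1 by 0.60, the fat hormone leptin (LEP) by 0.55 and the transcription factor CEBPB by 0.24. The cell cycle inhibitor CDKN1C fell by 0.89. PCK1, G6PC, SCNN1A and SLC2A4 did not pass. Known targets thus moved in both directions between the ages.

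Of 19 NF-kappaB subunits, inhibitors and kinases, 2 were tested. NFKBIA was the one that passed, and MYD88, an adaptor of innate receptors, gave 0.00459. Of 18 NF-kappaB targets that glucocorticoid holds down, 10 were tested, with 4 higher and 2 lower. The chemokines CXCL10 and CXCL1 rose by 0.93 and 0.76, the prostaglandin synthase PTGS2 by 0.40 and the cytokine TNF by 0.26, the last on a probe well above background on 11 of 30 arrays. NOS2, the inducible nitric oxide synthase, fell by 0.65. SELE, an endothelial adhesion molecule, fell by 0.41 at its brighter probe and gave 0.02 at the other. Of 15 immediate-early and heat-shock genes, 6 were tested. JUN rose by 0.91 with 0.39 at its other probe, EGR1 rose by 0.33 with 0.08 at its other probe, and the stress chaperone HSP70.1 fell by 0.99.

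**Figure D4:**
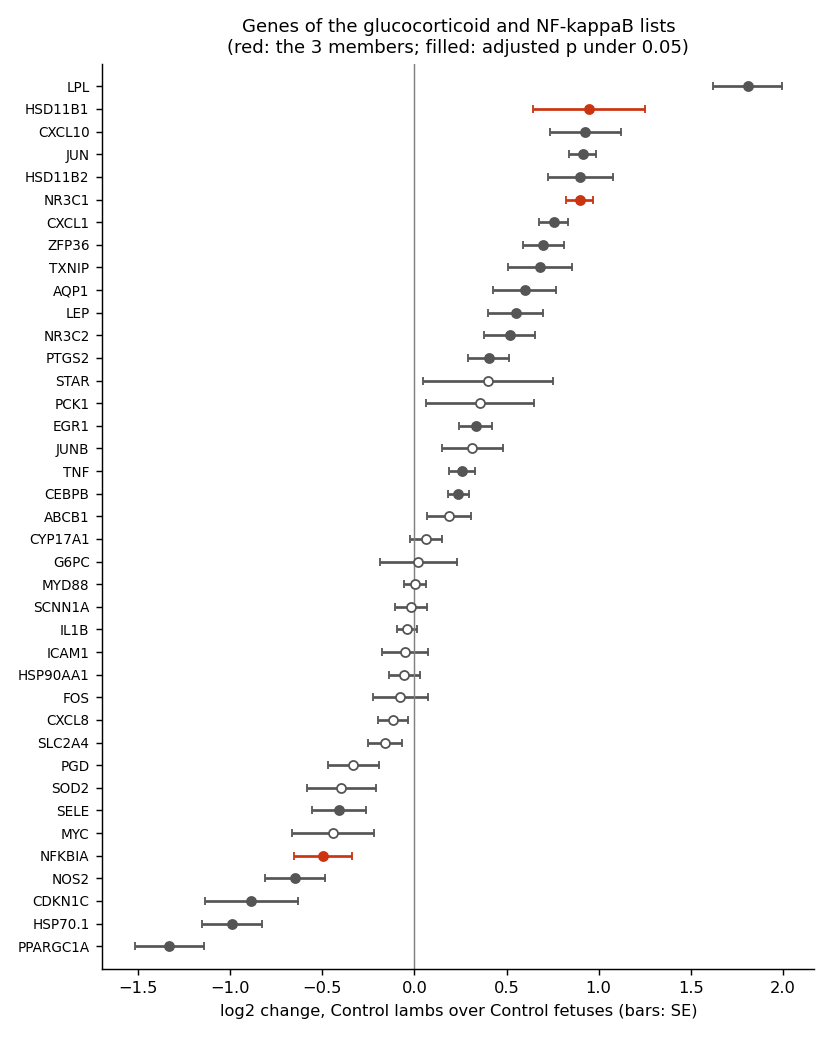
Log2 change from Control fetuses to Control lambs, with SE, of 39 of the 41 tested genes of the glucocorticoid and NF-kappaB lists, 1 probe a gene, filled where limma's adjusted p was under 0.05 and red for NR3C1, HSD11B1 and NFKBIA. There are 16 filled points above 0 and 6 below, from LPL at 1.81 to PPARGC1A at -1.33.

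In the cortisol comparisons 0 of the 41 genes passed the adjusted threshold by limma, in lambs, in fetuses or in the difference. At an unadjusted p under 0.05 there were 4 of 41 in lambs, 0 in fetuses and 0 in the difference, against 3.56%, 2.37% and 2.05% of all tested probes. The 4 were the antioxidant enzyme SOD2 (-0.40, SE 0.14), PTGS2 (-0.22, SE 0.10), the immediate-early gene FOS (0.52, SE 0.20) and HSP70.1 (0.58, SE 0.19). Their unadjusted p values by limma were 0.00870, 0.0360, 0.0175 and 0.00657. The other probes of SOD2 and HSP70.1 changed by -0.44 and 0.46, and the other 3 probes of FOS by 0.15 to 0.24.

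The named genes whose levels were most like NR3C1 over the 30 arrays, of 845 compared, were TF (transferrin, r 0.932), JUN (r 0.931), COL6A1 (a collagen, r 0.926), LPL (r 0.915) and LPAR1 (a lysophosphatidic acid receptor, r 0.908). All 5 were higher in Control lambs, by 0.91 to 1.75 at the probes compared. With group means subtracted the nearest were ETBR (r 0.765), CLOCK (r 0.746), MGLUR7 (r 0.727), SMAD4 (r 0.713) and PADI3 (r 0.708), none of which was in the first 5. For HSD11B1 they were CLMP (r 0.682), PTCH1 (r 0.669), JAG1 (r 0.658), ALDH1A1 (r 0.658) and LPL (r 0.654), and with group means subtracted SLC25A33 (r 0.610), IL13RA1 (r 0.573), FLT1 (r 0.516), ZO1 (r 0.509) and CLMP (r 0.508). For NFKBIA they were SLCO2A1 (r 0.715), FLT-1 (r 0.687), DKC1 (r 0.658), LOC443344 (r 0.649) and ATF4 (r 0.643), all lower in Control lambs, by 0.41 to 0.86. With group means subtracted the nearest included TXNIP (named VDUP1 on the array, r 0.642), MYC (r 0.566) and TIMP3 (r 0.560). These r values describe arrays that share slides and normalization.

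Marker transcripts of several cell types differed in level between the ages. The level of a list is the log2 of its summed intensity, in which the brightest gene weighs most. The brown adipocyte markers UCP1 and PPARGC1A, 2 tested of 5, gave 13.79 to 15.58 in Control fetuses and 14.14 to 15.28 in CORT fetuses. They gave 9.87 to 11.98 in Control lambs and 9.35 to 12.75 in CORT lambs, and UCP1 fell by 4.19 between the Control groups. COL1A2, COL3A1 and DCN, the 3 tested of 6 fibroblast markers, summed to 14.61 to 15.43 in Control fetuses, 15.08 to 15.64 in CORT fetuses, 16.02 to 16.51 in Control lambs and 14.74 to 16.56 in CORT lambs, and all 3 rose between the Control groups. CD14, ITGAM and FCER1G, the 3 tested of 7 macrophage and monocyte markers, ran from 10.02 to 10.34 in Control fetuses, 10.11 to 10.69 in CORT fetuses, 10.63 to 11.14 in Control lambs and 10.34 to 12.32 in CORT lambs, with 2 of 3 higher in Control lambs. The 6 tested adipocyte markers ran from 15.15 to 15.81 in Control fetuses, 15.03 to 16.29 in CORT fetuses, 15.08 to 16.47 in Control lambs and 15.63 to 16.25 in CORT lambs, with 2 of 6 higher in Control lambs. ADIPOQ and CIDEC of that list were not analysed here, since no tested probe bore their names. The part of these marker levels in the members' changes with age was not tested.

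The remaining marker lists overlapped between all 4 groups, as the adipocyte list did. The fibroblast and macrophage lists overlapped between the ages once CORT animals were counted. Endothelial markers (3 tested of 6) ran from 11.79 to 13.32 over all animals, the neutrophil markers (4 of 6) from 8.78 to 12.23, lymphocyte markers (3 of 7) from 8.29 to 10.02, the mesothelial marker WT1 (1 of 4) from 8.19 to 9.13 and erythroid markers (2 of 4) from 11.27 to 16.45. The striated muscle markers MB and TNNC2 (2 of 8) ran from 9.81 to 17.45, with both extremes in Control animals, the lowest a lamb and the highest a fetus. Among the neutrophil markers 3 were lower and 1 higher in Control lambs. Of the endothelial markers FLT1 was lower in Control lambs (-0.36, adjusted p 0.00105 by limma).

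**Figure D5:**
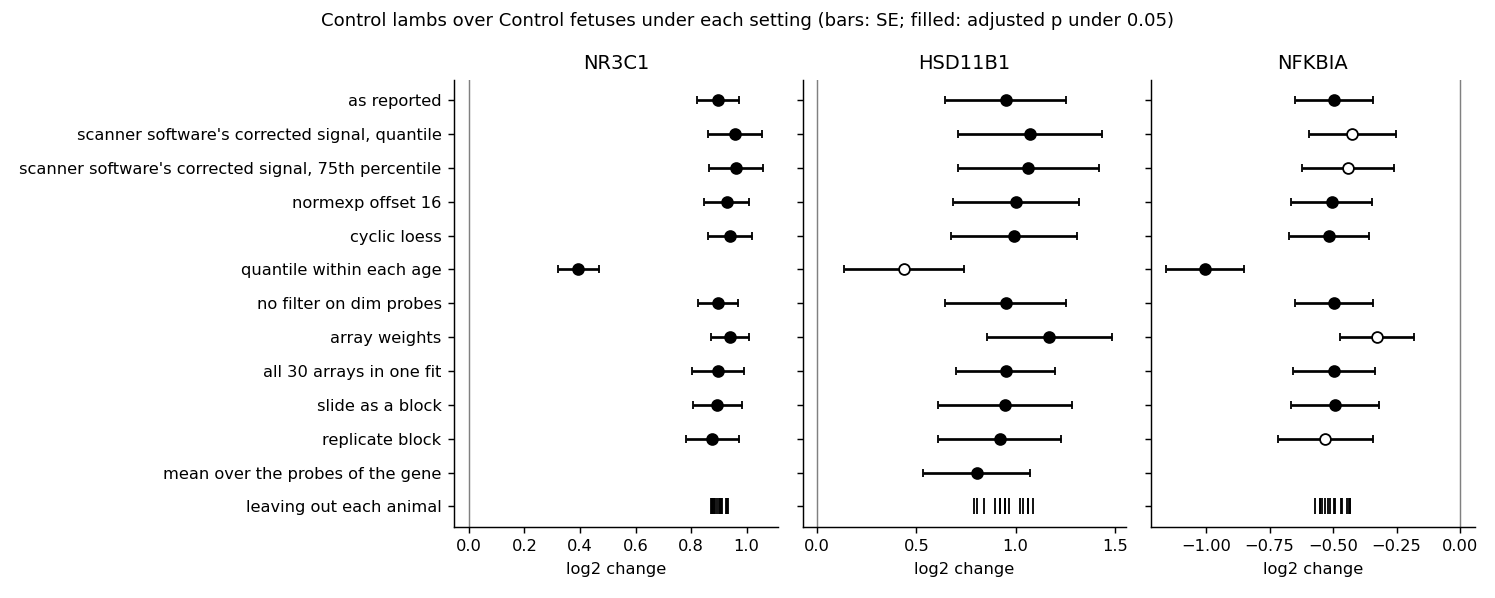
Log2 change of NR3C1, HSD11B1 and NFKBIA from Control fetuses to Control lambs under each way of processing the arrays, with SE, filled where limma's adjusted p was under 0.05, and ticks for the fits that leave out 1 animal. NR3C1 passes in every setting, HSD11B1 misses when each age is normalized alone (0.44), and NFKBIA misses in 4 settings.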

How the data were processed

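Total RNA of epicardial adipose tissue was labelled and hybridised by the authors to a 1-colour Agilent array. The label protocol names Cy3 and the published methods Cy5, and the files hold the green channel alone. Per the file headers, the deposited scanner files hold mean foreground and median background intensity, extracted with Agilent Feature Extraction 10.1.1.1. The authors also deposited a matrix of log2 values, normalized in limma, of which only the lamb columns were used, as an alternative.

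Intensities were corrected with limma 3.58.1 in R 4.3.3 (normexp, offset 50) and quantile normalized over 30 arrays, without control and outlier spots. Probes at least 10% brighter than the 95th percentile of 77 negative control spots on at least 6 arrays were tested (12872 of 15008) with lmFit and eBayes, with only the compared groups in each fit. Intervals and p-values cover the spread between animals, and the number of arrays limits their precision. Exact permutation tests were two-sided, 12 in all and unadjusted, and relations used 100000 resamples (SciPy 1.17.1). The procedure was tested on simulated data.

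All probes of the 3 genes were named. Genes of 7 pathway lists were counted, with values for those past the adjusted threshold in a comparison or at an unadjusted p under 0.05 in a cortisol comparison. A gene was represented by its brightest tested probe. In the marker sums PPARGC1A was represented by another of its probes (-1.26 with age). FLT1 and FLT-1 were kept as separate array names among the genes compared for likeness. For each of the 3 genes the 5 nearest named genes were given. A few genes that these rules name are not reported here, and the counts of the lists include them. Older array names were read as current ones (HSD11K as HSD11B2, GRO as CXCL1, C-JUN as JUN, VDUP1 as TXNIP, PGC1 as PPARGC1A, GLUT4 as SLC2A4, LOC443144 as NR3C2, EDG-2 as LPAR1, PAD as PADI3, C-MYC as MYC, LOC654334 as SLCO2A1). The genes and lists were chosen with earlier results of these data known. No genome coordinates were used here. Alternatives were the background correction, scaling, filter, array weights, samples in the fit, slide, replicate number, probe choice, the authors' lamb values and leaving out each animal.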

Additional observations from a re-analysis of the deposited data

How the results depend on the processing

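The changes with age kept their direction under all alternatives run. NR3C1 passed in all 10 other fits (0.39 to 0.96). The lowest value came from quantile normalization within each age, which put the median change of all tested probes at -0.54, and less that median NR3C1 was 0.93 higher, HSD11B1 0.98 higher and NFKBIA 0.46 lower. Under that setting HSD11B1 did not pass (0.44, adjusted p 0.182). NFKBIA did not pass with the scanner software's signal (-0.42 with quantile and -0.44 with the 75th percentile), with array weights (-0.33) or with replicate number as a block (-0.53). The cause was not tested. Leaving out each animal in turn changed no call with age, with ranges of 0.87 to 0.93 for NR3C1, 0.79 to 1.09 for HSD11B1 and -0.57 to -0.43 for NFKBIA.

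No cortisol comparison of the 3 genes passed under any alternative. Signs turned near 0 for NR3C1 with the replicate block (0.00248 in lambs, 0.0731 in the difference) and for NFKBIA in the difference with cyclic loess (0.0495) and with quantile within each age (0.000595). Between 2 groups the replicate block takes the change only from numbers found in both, so CORT lambs 8 and 9 do not enter the lamb change. Between the Control groups it gave the same changes as the fits without Control fetus 8. Leaving out animals moved NR3C1 in fetuses from -0.0673 to 0.00833, NR3C1 in the difference from -0.092 to 0.0143 and NFKBIA in the difference from -0.0724 to 0.136, with the sign turned in 1, 1 and 14 fits. The labels number the replicates of each group. Deviations of animals with the same number correlated over 0.1 in 5 of 7 pairs in lambs (r -0.0634 to 0.413), 3 of 6 in fetuses (-0.191 to 0.414) and 1 of 7 between the Control groups (-0.227 to 0.244), and 6 of 14, 3 of 12 and 0 of 14 animals correlated best with their own number. Animals with the same number shared a slide in lambs, in fetuses except for number 4, and never between the Control groups. The part of the slide in these r values was not tested. Since no label ties the numbers, they were not taken as pairs. The block called 1 probe in fetuses, against 0, and 4639 between the ages, against 5352. It removed no call of the 3 genes but that of NFKBIA with age.

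Each comparison of 2 groups had 14 to 16 animals and the difference of the cortisol changes had 30. The 95% confidence intervals of the cortisol changes were 0.309 to 1.31 wide on the log2 scale in fetuses and 0.447 to 0.743 wide in lambs, narrowest for NR3C1 and widest for HSD11B1. The fetal columns of the authors' matrix were not used.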
